A study of Homo sapiens with 9 samples.

Results

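*IL3*, *CSF2* and *CSF1* encode secreted growth factors of myeloid cells, and they were followed here through the accessible chromatin around them in Jurkat clone E6-1, a single clone of a line grown from a human T cell leukaemia. Accessibility was measured by FAIRE-seq, in which DNA free of nucleosomes is recovered from fixed, sonicated chromatin and sequenced, and the values below are those of the authors' own peaks. The members are the merged regions, formed by joining overlapping or touching peaks of 4 lists, that lie in the gene body or within 50 kb of the transcription start site (TSS) of each gene. There were 9 such regions of 40703 on the autosomes, X and Y. *IL3* had 5, *CSF2* had 7 and *CSF1* had 2, and the 5 regions of *IL3* are all among those of *CSF2*, because the TSSs of this pair lie 13.1 kb apart on chromosome 5.

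The study has 9 samples, each a single library, and 4 of them have a peak list. By their labels, the lists describe non-stimulated cells (NS) and cells after stimulus withdrawal (SW), each after pre-treatment with DMSO, the vehicle, or with rottlerin, a protein kinase C inhibitor given at 15 μM for 1 h. NS cells received no stimulus. The labels give SW cells 4 h of PMA and ionomycin, which together mimic T cell receptor signalling, then a wash and 1 day of culture, while the paper's methods give a shorter stimulation. By the labels, the stimulated and re-stimulated states have no list, and they were not analysed here under those names. The total input library was used only by the authors, as the reference of each peak.

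The labels and the paper differ on what the lists hold. All peaks of the 4 lists merged into 40731 regions, 28 of them outside the autosomes, X and Y. The paper's methods give the same number of regions, and of regions removed, for its DMSO libraries alone. Those are of non-stimulated, stimulated, SW and re-stimulated cells. Lists labelled rottlerin may thus hold stimulated or re-stimulated DMSO cells, which was not tested. The match is at odds with the rottlerin labels, whereas the states labelled NS DMSO and SW DMSO are both among the paper's DMSO libraries. Which list holds which state cannot be settled from it. Each list is called by its label below, as a name only, and no difference is read as an effect of rottlerin or of stimulus withdrawal. There is 1 library behind each list, so the replicate error is unknown and no test was made. The lists held between 18977 (NS DMSO) and 30409 (SW rottlerin) peaks, with median fold enrichments over total input between 4.03 and 4.08. Read depth is unknown from them, so a region without a peak is one that was not called. As a check of the cell type, a region lay within 1 kb of the TSS of 8 of 8 T cell genes (*CD3D*, *CD3E*, *CD3G*, *CD247*, *LCK*, *CD28*, *TRAT1* and *LAT*), of 1 of 6 myeloid genes (*CEBPA*, in the SW rottlerin list alone) and of 0 of 5 B cell genes, against 44.9% of all protein-coding genes. At 6 of the 8 T cell genes it had an NS DMSO peak.

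Interleukin-3 and GM-CSF, the product of *CSF2*, are released by activated T cells and act on myeloid progenitors, granulocytes and macrophages. Their receptors pair a ligand-specific chain, IL3RA or CSF2RA, with a common chain, CSF2RB, and signal through JAK2 and STAT5. The genes are neighbours and are switched on together by calcium and protein kinase C signals, through promoters and inducible enhancers known for NFAT, AP1 and RUNX sites. M-CSF, the product of *CSF1*, drives the survival and differentiation of macrophages through a separate receptor tyrosine kinase, CSF1R.

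On Hg19 (GRCh37), *IL3* (ENSG00000164399) spans 131396348 to 131398897 on chromosome 5, *CSF2* (ENSG00000164400) spans 131409482 to 131411863, and *CSF1* (ENSG00000184371) spans 110452864 to 110473614 on chromosome 1, all on the plus strand. Regions are named below by the distance in kb from the nearest member TSS to their mid-point, negative when upstream. Sequences of the regions on which the results turn are given next, from the GRCh37 plus strand, since they show what the peaks cover. They are the peak at the *IL3* TSS, the region with an NS DMSO peak, the *CSF2* regions with the highest fold enrichment, the *CSF2* region with most matches, and the region nearest *CSF1*. Capitals mark matches on either strand to the NFAT sequence TGGAAA or the RUNX sequence TGTGGT (read on the other strand as TTTCCA and ACCACA). Regions longer than 300 bp are shown by their central 300 bp.
IL3 −0.134 kb: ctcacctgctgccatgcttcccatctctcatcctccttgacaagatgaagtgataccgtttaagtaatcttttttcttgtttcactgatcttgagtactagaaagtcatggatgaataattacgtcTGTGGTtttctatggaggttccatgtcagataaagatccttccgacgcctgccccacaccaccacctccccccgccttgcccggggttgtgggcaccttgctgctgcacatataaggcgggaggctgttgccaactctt
CSF2 +30.0 kb: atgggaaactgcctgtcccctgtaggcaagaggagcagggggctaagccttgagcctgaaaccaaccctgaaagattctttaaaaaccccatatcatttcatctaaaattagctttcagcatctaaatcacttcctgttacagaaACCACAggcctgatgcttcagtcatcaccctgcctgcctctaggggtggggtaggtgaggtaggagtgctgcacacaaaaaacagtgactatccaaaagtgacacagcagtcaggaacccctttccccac
CSF2 +25.5 kb: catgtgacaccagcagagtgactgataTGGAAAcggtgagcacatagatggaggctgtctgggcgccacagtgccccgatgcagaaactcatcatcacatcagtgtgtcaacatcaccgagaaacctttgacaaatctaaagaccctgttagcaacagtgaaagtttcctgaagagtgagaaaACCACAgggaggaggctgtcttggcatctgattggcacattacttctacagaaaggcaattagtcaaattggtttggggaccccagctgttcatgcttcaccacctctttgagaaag
CSF2 +37.4 kb: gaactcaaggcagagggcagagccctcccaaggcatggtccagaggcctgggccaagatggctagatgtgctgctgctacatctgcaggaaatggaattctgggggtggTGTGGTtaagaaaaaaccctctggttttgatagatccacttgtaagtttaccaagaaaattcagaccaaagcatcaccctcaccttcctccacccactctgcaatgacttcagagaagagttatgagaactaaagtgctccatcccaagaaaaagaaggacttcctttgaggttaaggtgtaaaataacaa
CSF2 +40.9 kb: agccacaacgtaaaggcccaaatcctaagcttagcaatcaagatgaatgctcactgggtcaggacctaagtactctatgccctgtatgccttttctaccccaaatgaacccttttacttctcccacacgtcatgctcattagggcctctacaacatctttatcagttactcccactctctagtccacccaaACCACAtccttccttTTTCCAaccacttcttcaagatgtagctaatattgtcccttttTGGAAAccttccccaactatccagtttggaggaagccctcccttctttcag
CSF1 −3.8 kb: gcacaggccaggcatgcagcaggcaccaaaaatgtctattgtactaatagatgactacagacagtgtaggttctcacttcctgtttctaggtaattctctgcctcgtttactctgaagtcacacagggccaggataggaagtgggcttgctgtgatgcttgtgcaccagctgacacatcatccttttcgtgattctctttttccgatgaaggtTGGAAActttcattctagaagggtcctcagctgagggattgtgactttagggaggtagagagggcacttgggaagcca

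The *IL3* −0.134 kb region (chr5:131396082-131396346) is the promoter itself, since it ends 2 bp before the TSS, and its last 249 bases are found letter for letter in the RefSeq *IL3* promoter (GRCh38.p14). The *CSF2* +30.0 kb region (chr5:131439354-131439628), the *CSF2* +25.5 kb region (chr5:131434804-131435203), the *CSF2* +37.4 kb region (chr5:131446683-131447158) and the *CSF2* +40.9 kb region (chr5:131450249-131450585) lie in intergenic sequence downstream of *CSF2*, with no gene of the annotation over them. The *CSF1* −3.8 kb region (chr1:110448882-110449172) lies upstream of *CSF1*.

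Most accessible regions around these genes were not called in the NS DMSO list. Of the 9 regions, 8 had no NS DMSO peak, against 53.5% of all merged regions. A peak was present in 5 of the 9 in the SW DMSO list (49.3% of all regions), in 3 in the NS rottlerin list (58.4%) and in 9 of 9 in the SW rottlerin list (74.5%). The SW rottlerin list is the longest. When every list was reduced to its 18977 highest-scoring peaks, 6 regions remained, of which 5 had no NS DMSO peak, against 41.5% of all regions, and all 6 had a SW rottlerin peak, against 58.5%. The 3 regions lost were *IL3* −4.3 kb, *IL3* −0.134 kb and *CSF1* −19.8 kb. Without the SW rottlerin list, 5 of 6 regions lacked an NS DMSO peak, against 43.3% of all regions. Neighbouring regions share their cells and library, so the 9 are not independent of each other.

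**Figure D1:**
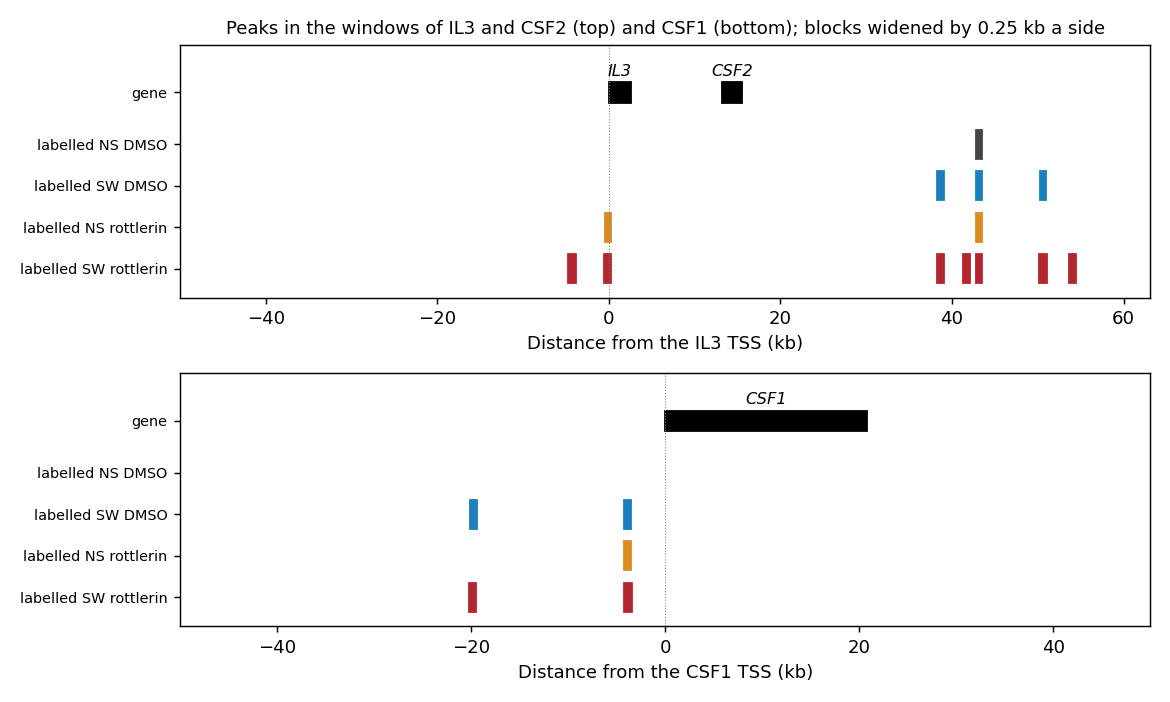
Peaks of each list (rows) by distance in kb from the *IL3* TSS (top) and the *CSF1* TSS (bottom), with gene bodies in black and each block slightly widened to be visible. Peaks downstream of *CSF2* form 5 of the 9 regions, no list has a peak between *IL3* and *CSF2*, and the row labelled NS DMSO holds a single peak.

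*CSF2* stood high among protein-coding genes in this count and *CSF1* near the middle. The median gene had 3 regions in its window and 1 without an NS DMSO peak. *CSF2*, with 6 regions without an NS DMSO peak, exceeded 96.5% of the 20162 genes, *IL3*, with 4, exceeded 88.5%, and *CSF1*, with 2, exceeded 59.4%. In regions of any kind, *CSF2* exceeded 87.0% of the genes, *IL3* 71.3% and *CSF1* 29.1%, so the ranking partly follows the number of regions in a window. *IL3* and *CSF2* were among the 517 of 5795 genes with at least 5 regions (8.92%) that had an NS DMSO peak in at most 1 of them. As their windows share 5 regions, these are not separate observations. Besides the pair itself, the chromosome 5 windows hold *ACSL6*, whose TSS lies upstream of *IL3*, and a second protein-coding gene that overlaps it (ENSG00000281938). They also hold a lncRNA gene (ENSG00000231585) and the small RNA gene *snoZ6*. The *CSF1* window holds the lncRNA genes *LINC01768*, in part, ENSG00000235005 and ENSG00000261055.

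**Figure D2:**
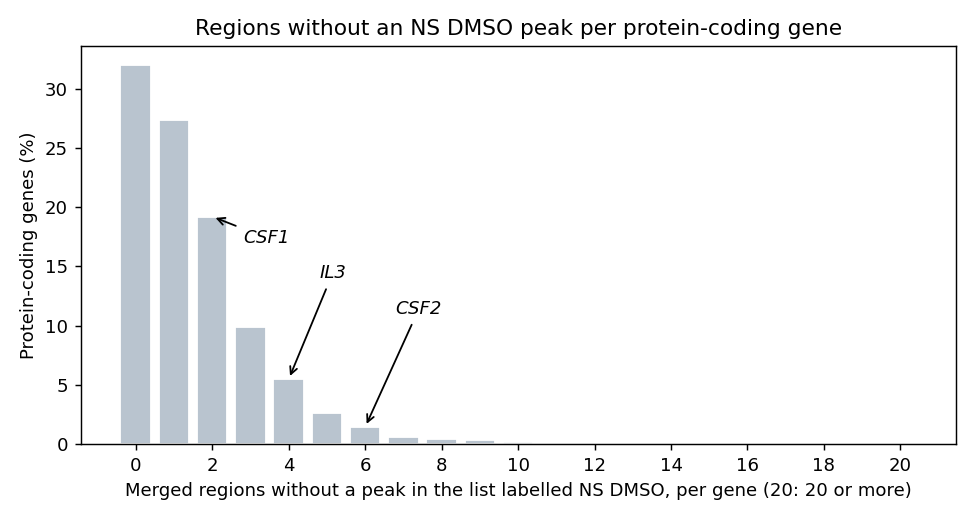
Share of protein-coding genes (%) by the number of merged regions in the gene's window without a peak in the NS DMSO list, the last bar holding 20 or more. *CSF1* stands at 2, *IL3* at 4 and *CSF2* at 6, where the median gene has 1.

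At the *IL3* gene, accessibility was called at the promoter in 2 of the 4 lists. The promoter region had a fold enrichment of 3.46 in the NS rottlerin list and 3.59 in the SW rottlerin list, and no peak in the NS DMSO and SW DMSO lists. A peak in the NS rottlerin and SW rottlerin lists alone is a pattern of 8.44% of all regions. Both values are low for their lists, above 23.6% and 30.5% of the peaks in those lists. Neither peak was above the median score of its list. The nearest NS DMSO peak to the *IL3* TSS was 43.0 kb away, and the nearest SW DMSO peak 38.5 kb away. A region within 1 kb of the TSS was found at 44.9% of protein-coding genes, and *IL3* was the member that had one.

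The second region upstream of *IL3*, at −4.3 kb (chr5:131391883-131392252), was called in the SW rottlerin list alone. Its fold enrichment of 2.67, with a −log10 q-value of 1.62, was the lowest of the 18 peaks in the member regions and exceeded 1.16% of the peaks in its list. Its central 300 bp had 62.7% GC, the highest of the 9 regions, and held none of the 11 motifs sought.

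No list had a peak at the *CSF2* promoter, in the gene body, or between *IL3* and *CSF2*, an interval of 10.6 kb. The known inducible enhancer of *CSF2* lies upstream of the gene in that interval. The nearest peak to the *CSF2* TSS was the *IL3* promoter peak, 13.1 kb upstream in the SW rottlerin list and 13.2 kb upstream in the NS rottlerin list, and a downstream peak in the others, at 25.4 kb (SW DMSO) and 29.9 kb (NS DMSO). A region in the gene body was found at 63.5% of protein-coding genes and at none of the 3 members.

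The calls near *CSF2* lay instead in a group of 5 regions between 25.5 and 40.9 kb downstream of its TSS, all intergenic. They differed among themselves in the lists that held them. The *CSF2* +30.0 kb region had a peak in every list, as 26.6% of all regions did. Its fold enrichment was 3.57 in the NS DMSO list, 3.63 in SW DMSO, 4.47 in NS rottlerin and 4.52 in SW rottlerin. The values of the NS DMSO and SW DMSO lists were thus lower than those of the other lists, with 1 library behind each.

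Relative to the NS DMSO list, the ratios at *CSF2* +30.0 kb were 1.02 for SW DMSO, 1.25 for NS rottlerin and 1.26 for SW rottlerin. None reached 1.5-fold in either direction, a limit passed by 3.85%, 4.57% and 6.04% of the regions with both peaks. The median ratios over those regions were 0.98, 1.04 and 1.06, in the same order. After each list was divided by its median at regions present in all lists, the ratios at *CSF2* +30.0 kb were 1.03, 1.20 and 1.17. *CSF2* +30.0 kb was the one region at the 3 genes where such a ratio to the NS DMSO list could be formed. These ratios share the NS DMSO value, so they do not vary separately.

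The *CSF2* +25.5 kb and +37.4 kb regions had a peak in the 2 lists labelled SW and in no other, a pattern of 6.26% of all regions. At +25.5 kb the fold enrichment was 4.67 in the SW DMSO list and 5.08 in the SW rottlerin list, above 72.8% and 79.6% of the peaks in those lists. At +37.4 kb it was 3.51 and 5.44, above 26.4% and 85.5% of them.

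The +37.4 kb region thus differed most between the lists that held it. Its peak was 253 bp wide with a −log10 q-value of 2.05 in the SW DMSO list, and 476 bp wide with 7.23 in the SW rottlerin list. The ratio of 1.55 was the only 1 of 13 ratios at the member regions past 1.5-fold, and it was 1.41 after each list was divided by its median at regions present in all lists. Between the same lists, 4.1% of regions with both peaks passed 1.5-fold, and the median ratio was 1.08. This region lies just outside the *IL3* window.

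The remaining regions of the group, *CSF2* +28.6 kb (chr5:131437913-131438182) and +40.9 kb, were called in the SW rottlerin list alone, as 18.2% of all regions were. Their fold enrichments were 4.16 and 4.38, near the list's median of 4.03. The first lies 1171 bp from the region with an NS DMSO peak. The next region downstream, beyond the *CSF2* window at 117 kb from the TSS, had a peak in every list, with fold enrichments between 3.87 and 4.12.

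**Figure D3:**
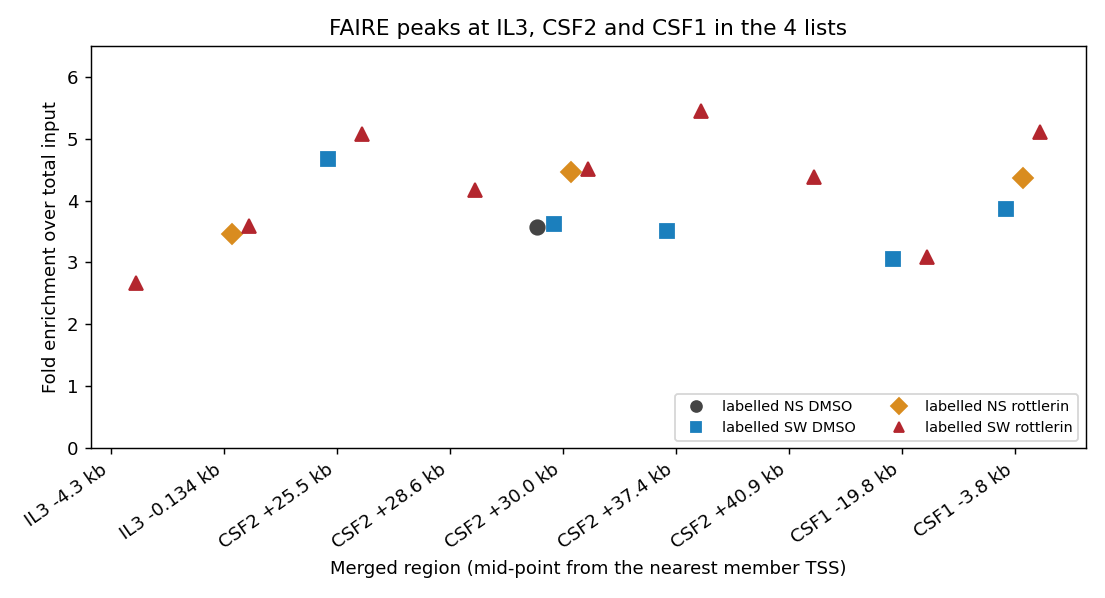
Fold enrichment over total input (vertical axis) of each peak in the 9 merged regions (horizontal axis, named by distance from the nearest member TSS), with a marker for each list and 1 library a list. Values run from 2.67 to 5.44, the SW rottlerin list has a peak in every region, and the NS DMSO list has one at *CSF2* +30.0 kb.

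*CSF1* had 2 regions, both upstream of the gene, and none in its body of 20751 bp or downstream of it within 50 kb. Neither had an NS DMSO peak, and the nearest such peak to the *CSF1* TSS was 74.3 kb away. The −3.8 kb region was called in the 3 other lists, a pattern of 7.08% of all regions. Its fold enrichment was 3.86 in the SW DMSO list, 4.36 in NS rottlerin and 5.11 in SW rottlerin, with −log10 q-values of 5.65, 7.72 and 11.7. The last of these was the highest at any member region.

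The *CSF1* −19.8 kb region (chr1:110432916-110433246) was called in both lists labelled SW. It lies between 2 lncRNA genes (ENSG00000235005 and ENSG00000261055), upstream of both and nearer to their start sites than to that of *CSF1*. Its fold enrichments of 3.05 and 3.10 differed by a ratio of 1.02 and exceeded 8.02% and 10.1% of the peaks in their lists. The *CSF1* TSS itself had no region within 1 kb.

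Across the 3 genes, the SW rottlerin list gave the highest fold enrichment in all 6 regions that it shared with another list, as it did in 44.8% of all such regions. Its margins were small at several of them. Over SW DMSO its ratios ran from 1.02 (*CSF1* −19.8 kb) to 1.55, with 1.32 at *CSF1* −3.8 kb. Over NS rottlerin they were 1.01 at *CSF2* +30.0 kb, 1.04 at the *IL3* promoter and 1.17 at *CSF1* −3.8 kb, where 3.59% of all regions with both peaks passed 1.5-fold. After division by list medians, the ratio fell below 1 at *CSF2* +25.5 kb (0.989) and *CSF1* −19.8 kb (0.924) over SW DMSO, and at *IL3* −0.134 kb (0.999) and *CSF2* +30.0 kb (0.976) over NS rottlerin, so the order of the lists is not settled there. The NS rottlerin list stood over SW DMSO by 1.23 at *CSF2* +30.0 kb and 1.13 at *CSF1* −3.8 kb, and 4.48% of regions with both peaks passed 1.5-fold between them.

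**Figure D4:**
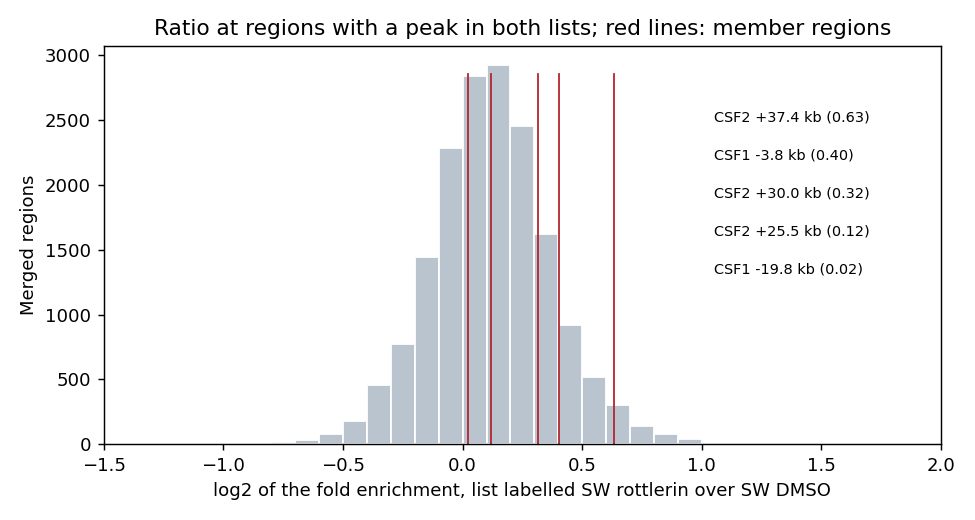
Number of merged regions (vertical axis) by the log2 ratio of the fold enrichment in the SW rottlerin list to that in the SW DMSO list, for the 17128 regions with both peaks, with red lines at the 5 member regions. *CSF2* +37.4 kb (0.63) lies in the right tail, and *CSF1* −19.8 kb (0.02) lies below the median, above 34.1% of the regions.

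In sequence, the member regions most often held a RUNX match. RUNX1, a core T cell factor known to act at the *IL3* and *CSF2* regulatory elements, binds such sequences. TGTGGT was found in the central 300 bp of 7 of the 9 regions, where 32.8% of all merged regions hold it, and in all 5 regions downstream of *CSF2*. The match in the *IL3* promoter lies 140 bp upstream of the TSS, within the run printed above. The regions without a RUNX match were *IL3* −4.3 kb and *CSF1* −3.8 kb.

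The NFAT sequence TGGAAA was found in 5 regions (27.9% of all regions). These were *CSF2* +25.5 kb, +28.6 kb and +40.9 kb, the last with 2 matches, and both *CSF1* regions. ETS sequences (CCGGAA or AGGAAG) were found in 6 regions (48.9%). The AP1 sequence TGANTCA, found in 17.9% of all regions, was in none of the 9, although 2 of them held it within the central 500 bp. NFκB sites were also in none (4.33% of all regions). The sequence AGATAA, bound by GATA factors, was found in 1 region (20.98%), the *IL3* promoter. The CRE core TGACG was found in 2 regions (17.5%) and the CTCF core CCANNAGNG in 3 (16.9%). Of the E-boxes, CACCTG was found in 1 region (21.4% of all regions). The E-box with 1 central base changed, CAGCTG, was found in 2 regions (17.1%). The last form sought, CATCTG, was found in 2 regions (21.4%). All were sought on both strands, and a match is no evidence of binding.

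ETS and RUNX matches lay close together in 2 regions, with 9 bases between them at *CSF2* +30.0 kb and 2 bases at *CSF2* +40.9 kb. In the printed sequence of the latter, an NFAT match follows directly downstream of this pair. At most 10 bases between such matches were found in 2.17% of all regions. This spacing was looked at after the sequences had been seen.

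**Figure D5:**
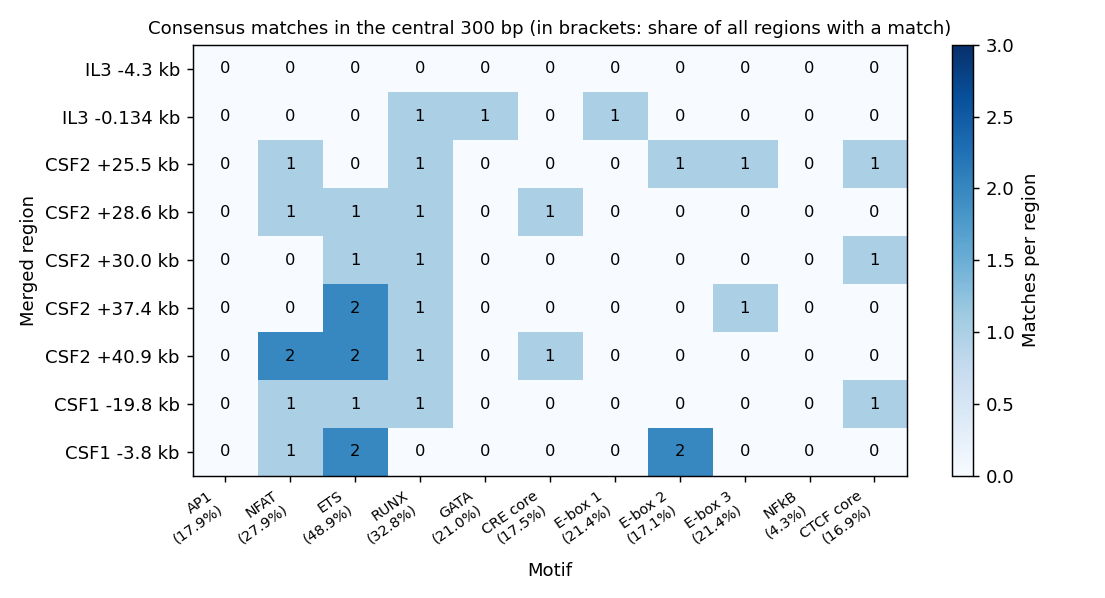
Number of consensus matches in the central 300 bp of each member region (rows) for each motif (columns), with the share of all merged regions that hold a match in brackets. E-box 1, 2 and 3 are the E-box sequences in the order of the text. The RUNX column has a match in 7 of 9 rows, and the AP1 and NFκB columns have none.

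The members differed from all regions more in CpG number than in GC content. The median GC content of the central 300 bp was 47.7%, against 46.3% over all regions. The median number of CpG dinucleotides was 2, against 4, and the *IL3* promoter held the most, with 8. The median width was 331 bp, against 294 bp.

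The other genes of the pathway differed in how many regions surrounded them. The related ligand genes *IL5*, *CSF3* and *IL34* had 9 regions, 3 of them without an NS DMSO peak, where 53.5% of all regions had none. *CSF3*, which encodes G-CSF, had 4 regions, all with an NS DMSO peak. At the *IL5* promoter, a region was present with fold enrichments of 3.14 (NS DMSO), 3.08 (SW DMSO) and 3.23 (SW rottlerin). The 5 receptor genes had 5 regions in all and none within 1 kb of a TSS. *IL3RA* and *CSF2RA*, the ligand-specific chains, had no region, like 14.4% of protein-coding genes, and how well reads map there was not examined. *CSF2RB*, the common chain, had 1 in the NS rottlerin list alone, and *CSF1R*, the M-CSF receptor, had 1 in both lists labelled SW. *CSF3R*, the G-CSF receptor, had 3. The signalling genes *JAK2*, *STAT5A* and *STAT5B* had 26 regions counted by gene, 13 without an NS DMSO peak, near the share of all regions, with shared regions between the STAT5 genes, which are neighbours. *JAK2* had a promoter region in every list, from 3.13 to 3.46.

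The genes most like each member were sought by the mean absolute difference, over the 4 lists, in the share of a gene's regions with a peak, among protein-coding genes with at least 3 regions. With 4 lists, this measure is coarse. For *IL3*, 8 of 11198 genes had a difference of 0, and those nearest in number of regions and fold enrichment included *HOXB1* and *GPHA2*, each with 5 regions. For *CSF2*, *IL1RAP* and *PELI1* had a difference of 0 with 7 regions each, followed by *KCNK5* (0.0357). For *CSF1*, with 2 regions, *CHCHD5*, *HRCT1* and *OR2S2* were named out of 6 genes tied at a difference of 0.0417, each of the 3 with 3 regions. *HRCT1* and *OR2S2*, both on chromosome 9, had the same values, so they may not be separate observations.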

How the data were processed

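The authors' reads passed through CutAdapt (adapters), Bowtie2 (alignment to Hg19) and Picard (duplicates), and MACS2 then called broad peaks over total input. A q-value limit of 0.05 is given in the paper's methods, and each list holds some peaks above it. Tool versions are not given in the sources used here. The deposited lists, 1 for each of 4 of the 9 samples, hold for each peak a score that follows the q-value, a fold enrichment (a ratio to input), and −log10 p-values and q-values. Read depth is unknown, and with 1 library a group no test was made.

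Peaks of the lists were merged (bedtools 2.31.1 gave the same 40731 regions), and a region took the highest fold enrichment of each list in it. Genes came from GENCODE release 44 on GRCh37, and no peak lay beyond a chromosome end of that genome. Regions overlapping the gene body or 50 kb of the gene's 5′ end were kept. Every region of the members was reported. Pathway and marker genes were a fixed list, and neighbours and like genes followed fixed rules, with 1 of the like genes not reported here. The members and lists were chosen with earlier results of these data known. Motifs were sought as consensus sequences, the NFκB site by its IUPAC form. On simulated data, 2000 of 2000 regions, 500 of 500 windows and 1100 of 1100 planted sites were recovered. Scripts ran under Python 3.11.15 with pandas 2.3.3 and numpy 2.4.6. Sequences were read by samtools 1.23.1 and pysam 0.24.0, and plots drawn by matplotlib 3.10.9.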

Additional observations from a re-analysis of the deposited data

How the results depend on the processing

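No paired analysis was possible because each group has 1 library. Of 112 values under alternatives, over 32 results, 96 stayed within 1.5 times the main value. Taking the length-weighted mean of a list's peaks could change no ratio, since each list had a single peak in each region it held. Its values are among the 96. So are all ratios divided by list medians, although some of them fell below 1, so the 96 do not show that the order of the lists is kept. Joining only overlapping peaks, a q-value of 0.05 or less, the TSS of any transcript, mid-points, and a cover of at least 50% changed no count. With 25 kb in place of 50 kb, 4 regions were found, 4 without an NS DMSO peak, against 53.5% of all regions. The lists then held 0 (NS DMSO), 2 (SW DMSO), 2 (NS rottlerin) and 4 (SW rottlerin). With 100 kb there were 12 regions, 8 of them without an NS DMSO peak, against 53.5% of all regions. The NS DMSO, SW DMSO and NS rottlerin lists then held 4, 8 and 6. Among peaks above their list's median score, 6 regions remained, 6 of them without an NS DMSO peak, against 52.4% of all regions. NS DMSO then held 0, SW DMSO 2 and SW rottlerin 6, the last against 76.9% of all regions. With the same number of peaks in each list, 5 of 6 regions had no NS DMSO peak, against 41.5% of all regions. Without the SW rottlerin list (chosen after seeing the data), 5 of 6 had none, against 43.3%. After division by list medians, 0 of 13 ratios passed 1.5-fold. Windows and lists of other size hold other regions by construction. The 29 pairs of region and motif became 30 in whole regions and 39 in 500 bp, where AP1 was in 2 regions, CATCTG in 4 and the CTCF core in 5.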
